A study of Mus musculus with 32 samples.

Results

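The 9 genes described here handle lipid in macrophages and were chosen by symbol: *Apoe*, *Abca1*, *Abcg1*, *Lpl*, *Nr1h3*, *Trem2*, *Gpnmb*, *Plin2* and *Pparg*. All 9 were found, each with 1 Ensembl gene ID, among the 26560 genes of the Lin- RNA-seq table and the 25887 genes of the CD11b+ table, which share 23620 genes. IGF2BP3 eCLIP peaks were assigned to a gene when the peak name began with that gene's ID. For these genes, IGF2BP3 peaks were found on 4 members in Lin- cells (*Abca1*, *Abcg1*, *Gpnmb* and *Plin2*) and on 4 in CD11b+ cells (*Abcg1*, *Gpnmb*, *Plin2* and *Pparg*), against 39.8% and 37.1% of all genes that averaged 10 or more normalized counts. In CD11b+ cells, the midpoints of all 10 peaks of the members, merged over libraries, lay in introns, against 75.4% for all genes. The peak with the most reads covered a CA repeat in intron 4 of *Gpnmb*. It was called in all 4 CD11b+ libraries but passed the filter against size-matched input in only 2 of them. No peak was called on *Apoe*, *Lpl*, *Nr1h3* or *Trem2* in any eCLIP library.

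Macrophages take up lipoproteins and cell debris and must store or export the cholesterol and fatty acids they contain. Cholesterol-derived oxysterols activate the liver X receptors, among them LXRα, the product of *Nr1h3*, which drive transcription of the exporters *Abca1* and *Abcg1* and of the lipid carrier *Apoe*. Fatty acids act on PPARγ, the product of *Pparg*, and surplus lipid is kept in droplets coated by PLIN2. *Trem2* encodes a lipid-sensing receptor of myeloid cells, and *Gpnmb* encodes a membrane glycoprotein that is abundant in lipid-laden macrophages. IGF2BP3 is an oncofetal RNA-binding protein, and eCLIP maps it by crosslinking it to RNA, precipitating it and sequencing the bound fragments.

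The 32 libraries came from mouse MLL-Af4 leukemia models with C57BL/6 donor cells. Lin- cells were lineage-depleted bone marrow cells that had been transduced with an MSCV retrovirus carrying MLL-Af4, selected with G418 and kept in culture with cytokines. By magnetic selection, CD11b+ cells were taken from splenic tumors of irradiated mice transplanted with bone marrow that had been enriched with 5-FU and transduced with the same virus, although the names of their eCLIP libraries begin with "bm". RNA-seq covered 6 libraries of each cell type, 3 of the WT/MLL-Af4 genotype and 3 of I3KO/MLL-Af4, where I3KO is a germline *Igf2bp3* deletion that arose through leaky Vav1-Cre activity, so that all groups carried MLL-Af4. IGF2BP3 eCLIP was done in WT/MLL-Af4 cells. It comprised 3 biological (replicates 1 to 3) and 3 technical (4 to 6) Lin- libraries, and 2 biological (1 and 2) and 2 technical (3 and 4) CD11b+ libraries. Each had a size-matched input (smInput), a library from a small share of the same sample that, in the methods, was set aside after the precipitation step. For transplantation, the methods give female donors and recipients that were 8 weeks old.

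Peaks numbered 5455 to 11606 per Lin- eCLIP library and 8566 to 11771 per CD11b+ eCLIP library. After removal of peaks overlapping smInput peaks, 4040 to 10042 and 7085 to 10054 remained. The smInput peaks, for which the authors used other settings, numbered 217 to 1808 (Lin-) and 1381 to 1885 (CD11b+). Read depth is unknown, and the number of reads in a peak was read from the last number of its name, which was 3 or more in every library. A gene without a peak is therefore not shown to be unbound. *Igf2bp3* itself had a mean of 2041 normalized counts in Lin- and 1355 in CD11b+ cells, both genotypes pooled.

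The cell labels were checked against marker genes. Of the monocyte and macrophage markers, 9 of 10 listed in the Lin- table and 11 of 11 in the CD11b+ table averaged 10 or more normalized counts. The median was 602 over the 10 genes in Lin- and 333 over the 11 in CD11b+ cells. *Itgam* enters only the second, so these medians are not comparable. Without *Itgam*, the middle of the list in both tables lay between *Mertk* (422 in Lin-, 333 in CD11b+) and *Cx3cr1* (781 and 1067). *Lyz2* was at 20990 in Lin- and 72146 in CD11b+ cells, and *Csf1r*, the receptor for macrophage colony-stimulating factor, at 7910 and 15008. *Itgam*, which encodes CD11b, was only at 17.0 in the CD11b+ table and had no row in the Lin- table. Yet *Itgam* carried 11 IGF2BP3 peaks in CD11b+ cells, merged over libraries. Why its count was low was not tested. The C1q genes, which mature macrophages express, ranged from 6.71 to 394 in Lin- and from 56.6 to 101 in CD11b+ cells. The adipocyte markers that were listed stayed at or below 0.67 in Lin- and 4.78 in CD11b+ cells, where *Adipoq* was at 0.66 and 0.50. Neutrophil markers had a median of 1270 in Lin- and 16563 in CD11b+ cells, erythroid markers 49.8 and 16.0 (*Hba-a1* 5.85 and 1268), B cell markers 1.16 and 99.3, and red pulp macrophage markers 244 and 1193, among which *Cd163* was at 38.5 and 6056 and *Cd5l* at 336 and 37.1. All 7 progenitor markers averaged 10 or more in both tables, with a median of 14416 in Lin- and 29591 in CD11b+ cells. *Kit* was at 6974 and 673, *Cd34* at 9052 and 1291, *Flt3* at 9396 and 390, and *Mpo* at 101212 and 84102. *Myb* was at 22676 and 37516, *Elane* at 14416 and 43055, and *Prtn3* at 14582 and 29591. The T cell markers stayed at or below 1.15 and 5.63. Of the endothelial markers, *Cdh5* was at 33.0 and 7.33, and *Pecam1*, which myeloid cells express too, at 7064 and 3852. The part of these other cells in the levels below was not tested.

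Levels of the members are the authors' mean normalized counts over the 6 libraries of a cell type, so no spread between libraries is known and neighbours in an order cannot be told apart by error. In bulk RNA, fewer cells of a type and less RNA per cell cannot be told apart. Both tables were normalized separately, and each level was placed by its percentile among all genes of its table. All 9 members had a mean of at least 10 in both tables, and their median percentile was 84.7 in Lin- and 81.2 in CD11b+ cells. Of the members, 9 lay above the median gene in Lin- and 7 in CD11b+ cells. In Lin- cells, 4 members reached the top 10% of genes (*Gpnmb*, *Lpl*, *Apoe* and *Plin2*), and in CD11b+ cells 2 did (*Plin2* and *Gpnmb*).

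*Gpnmb* (ENSMUSG00000029816, chr6:49036546-49070929, plus strand, mm10) had the highest mean of the 9 in Lin- cells, 25613 normalized counts or percentile 99.8. In CD11b+ cells its mean was 4220, percentile 96.3. The gene ends 14.3 kb from *Igf2bp3*. In the I3KO libraries that enter this mean, the deletion came from loxP sites placed around exon 2 of *Igf2bp3*. Its effect on *Gpnmb* was not tested. *Plin2* (ENSMUSG00000028494, chr4:86648386-86670060, minus strand) stood at 2748 in Lin- and 5805 in CD11b+ cells, percentiles 90.4 and 97.6. It was 1 of the 2 members, with *Abcg1*, that ranked higher in CD11b+ cells.

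Of the carrier, exporter and lipase genes, *Abca1* alone lay below percentile 80 in CD11b+ cells. *Apoe* (ENSMUSG00000002985, chr7:19696109-19699188, minus strand) had a mean of 2749 in Lin- and 906 in CD11b+ cells, percentiles 90.4 and 81.2. *Abca1*, which passes cholesterol to lipid-poor apolipoprotein A-I (ENSMUSG00000015243, chr4:53030787-53159895, minus strand), went from percentile 84.7 (1766 normalized counts) to 60.8 (191), a difference of -23.9 percentile points that was the widest of the 9. Among genes averaging 10 or more, *Abca1* lay at percentiles 75.7 and 37.4. *Abcg1*, which passes cholesterol to high-density lipoprotein (ENSMUSG00000024030, chr17:31057675-31117988, plus strand), lay at percentiles 80.2 (1314) and 82.0 (959). *Lpl* (ENSMUSG00000015568, chr8:68880491-68907448, plus strand), the lipase that frees fatty acids from circulating triglyceride, was at 2803 in Lin- and 929 in CD11b+ cells, percentiles 90.7 and 81.6.

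*Trem2* (ENSMUSG00000023992, chr17:48346401-48354147, plus strand) had a mean of 1039 in Lin- and 497 in CD11b+ cells, percentiles 76.8 and 72.4. Both nuclear receptor genes lay near the middle of the tables. *Pparg* (ENSMUSG00000000440, chr6:115360951-115490399, plus strand) was at 176 and 30.0, percentiles 58.3 and 46.5. *Nr1h3* (ENSMUSG00000002108, chr2:91184061-91202834, minus strand) was at 58.3 and 31.3, percentiles 50.4 and 46.9. When only genes averaging 10 or more were ranked, *Pparg* lay at percentiles 33.5 and 14.5 and *Nr1h3* at 21.1 and 15.0. In all, 7 of the 9 members had a lower percentile in CD11b+ than in Lin- cells, against 58.7% of the 23620 genes in both tables.

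**Figure D1:**
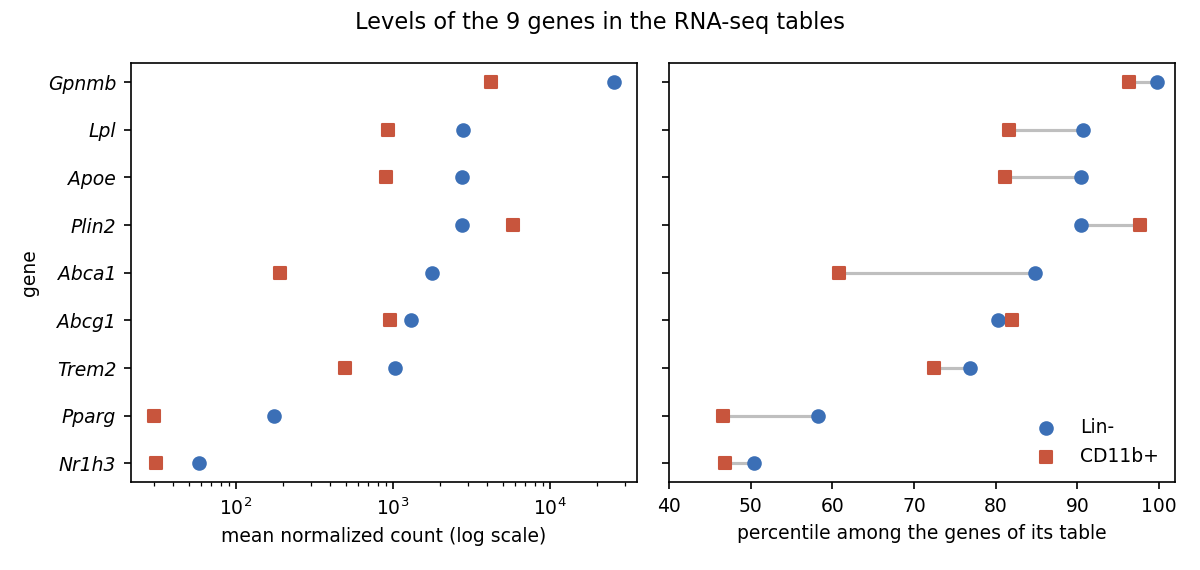
Levels of the 9 genes in Lin- (blue circles) and CD11b+ cells (red squares). The left panel gives the authors' mean normalized count on a log axis, and the right panel the percentile among the genes of the same table. *Gpnmb* and *Plin2* lie above percentile 90 in both cell types, and *Abca1* shows the widest gap.

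Divided by exon length, the order in Lin- cells was *Gpnmb* (3932 normalized counts per kb), *Apoe* (1286), *Plin2* (782), *Lpl* (268), *Trem2* (210), *Abcg1* (180), *Abca1* (170), *Pparg* (59.7) and *Nr1h3* (23.2). In CD11b+ cells it was *Plin2* (1653 per kb), *Gpnmb* (648), *Apoe* (424), *Abcg1* (131), *Trem2* (101), *Lpl* (88.7), *Abca1* (18.4), *Nr1h3* (12.4) and *Pparg* (10.2). Per kb of exon, *Gpnmb*, *Apoe* and *Plin2* thus held the first 3 places in both cell types, and the 2 nuclear receptor genes the last 2.

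IGF2BP3 peaks were then counted after the smInput filter. In Lin- cells, 4 of 9 members had at least 1 peak in any of 6 libraries. The background was 26.5% of all genes in the table, and 39.8% of genes averaging 10 or more normalized counts. In CD11b+ cells, 4 of 9 members had a peak in any of 4 libraries, against 25.6% of all genes and 37.1% of those with a mean of at least 10. *Abcg1*, *Gpnmb* and *Plin2* had peaks in both cell types, 3 of 9 members against 29.2% of the genes with a mean of at least 10 in both tables. These counts were near the background of genes averaging 10 or more. Among genes in the top 10% of levels, 87.6% had a peak in Lin- cells, where 2 of the 4 members there had one (*Gpnmb* and *Plin2*) and *Apoe* and *Lpl* had none. In CD11b+ cells 71.6% of the top 10% had a peak, as did both members there.

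The peaks were unevenly spread over Lin- libraries. The members' 12 filtered peaks in Lin- cells came from 3 libraries, with 4 in biological replicate 2, 6 in biological replicate 3 and 2 in technical replicate 5. Biological replicate 1 and technical replicates 4 and 6 had none. In CD11b+ cells the 20 filtered peaks fell in all 4 libraries, with 6, 5, 6 and 3 in replicates 1 to 4. The smInput libraries held 1 peak on a member in each cell type. No peak of any library that carried another gene's ID overlapped one of the 9 genes on either strand.

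**Figure D2:**
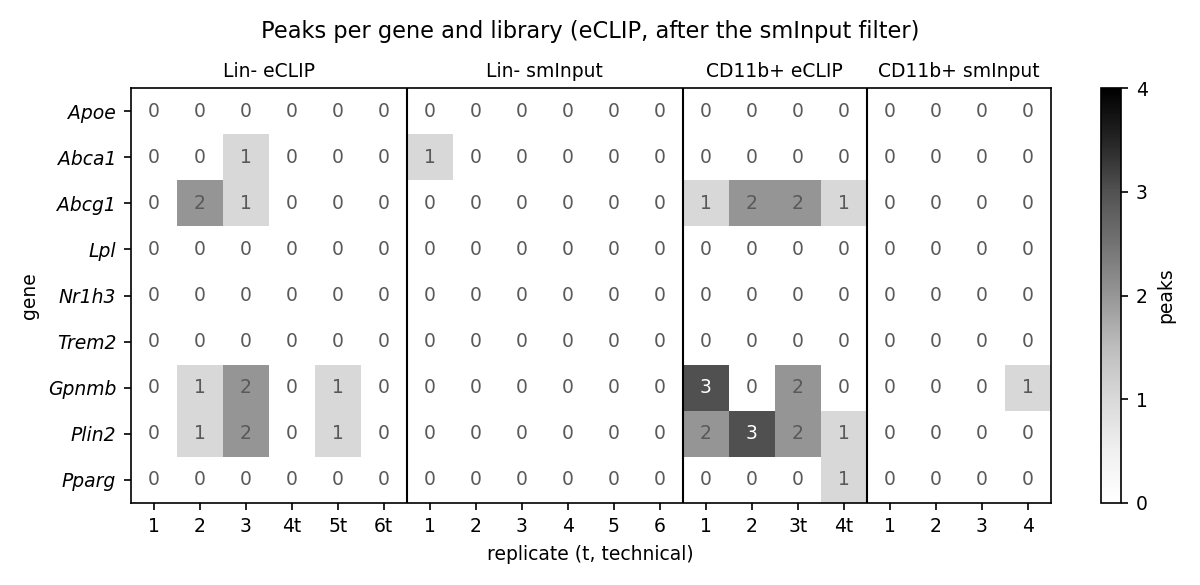
Number of peaks on each of the 9 genes (rows) in each library (columns), after the smInput filter for eCLIP and as called for smInput. A t marks technical replicates. *Plin2* and *Abcg1* have a peak in all 4 CD11b+ libraries, and 4 of the 9 rows are 0 throughout.

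After merging overlapping peaks across libraries of a cell type, the members carried 9 merged peaks in Lin- and 10 in CD11b+ cells. Of these, 2 of 9 in Lin- cells were found in at least 2 libraries, technical ones included, against 38.1% of the merged peaks of all genes. In CD11b+ cells 5 of 10 were, against 42.8%. In at least 2 biological libraries were 1 of 9 in Lin- cells, against 23.2%, and 3 of 10 in CD11b+ cells, against 19.2%. Sites in at least 2 libraries of either kind are called recurrent below. A technical library repeats a biological one, and the labels do not say which. A recurrent site with a single biological library may therefore rest on a single sample. The recurrent sites in introns are given below on the strand of the gene, 5′ to 3′, because their repeats are the part of the data that the peak counts do not show. Coordinates are mm10, sequences are from the RefSeq GRCm38.p6 assembly, and capitals mark either ACACAC or CACACA, or their reverse complements GTGTGT and TGTGTG, with overlapping matches joined.
Gpnmb intron 4, chr6:49046364-49046440, plus strand: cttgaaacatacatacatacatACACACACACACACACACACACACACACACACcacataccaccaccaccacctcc
Gpnmb intron 4, chr6:49046260-49046352, plus strand: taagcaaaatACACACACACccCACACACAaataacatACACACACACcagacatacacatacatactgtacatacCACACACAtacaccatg
Plin2 intron 5, chr4:86660417-86660501, minus strand: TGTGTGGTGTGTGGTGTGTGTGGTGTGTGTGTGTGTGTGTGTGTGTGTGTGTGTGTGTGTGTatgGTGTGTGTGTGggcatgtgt
Plin2 downstream intron, chr4:86651413-86651487, minus strand: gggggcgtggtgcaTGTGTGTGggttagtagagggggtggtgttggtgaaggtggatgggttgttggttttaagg
Abcg1 intron 2, chr17:31081005-31081097, plus strand, with the 64 nt in capitals that the Lin- peak also covers: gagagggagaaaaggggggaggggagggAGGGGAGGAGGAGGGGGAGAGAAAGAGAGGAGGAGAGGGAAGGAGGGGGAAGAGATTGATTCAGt

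In *Gpnmb*, both cell types had peaks on the same CA repeat of intron 4. In Lin- cells the site chr6:49046368-49046435 was called in biological replicates 2 and 3 and in technical replicate 5, with 9, 4 and 9 reads. In CD11b+ cells the peak held 89 reads in biological replicate 1 and 121 in technical replicate 3, where it ranked 258 of 9555 and 166 of 8609 peaks by reads. The peak was also called in biological replicate 2 with 20 reads and in technical replicate 4 with 8 reads, but these 2 did not pass the smInput filter. They overlapped a peak of 7 reads in smInput replicate 4, while the smInput of replicate 2 had no peak there. All 4 CD11b+ libraries thus had the site before the filter and 2 after it, and the overlapping peaks of replicates 1 and 3 remained in the filtered lists.

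The other recurrent *Gpnmb* site lay just upstream on a broken CA repeat. It was called with 20 reads in CD11b+ biological replicate 1, with 31 in technical replicate 3 and with 3 in Lin- biological replicate 3. Another *Gpnmb* peak, chr6:49047241-49047295, covered the end of intron 4 and the first 2 bases of the next exon, in capitals in the sequence below. It had 26 reads in CD11b+ biological replicate 1 and was not called elsewhere.
Gpnmb intron 4 end, chr6:49047241-49047295, plus strand: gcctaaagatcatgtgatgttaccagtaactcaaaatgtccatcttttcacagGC

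In *Plin2*, the places of the peaks differed between the cell types, and no merged peak of one overlapped that of the other. The intron 5 site of CD11b+ cells was called in all 4 libraries, with 10 reads in replicate 1, 28 in replicate 2, 6 in replicate 3 and 10 in replicate 4. It lay 147 nt from a splice site and consisted of TG repeats, so that the CA repeat is on the opposite strand. The downstream site was called in replicates 1, 2 and 3 with 4, 4 and 6 reads. It lay beyond the end of the principal transcript, in an intron of a longer one. A further CD11b+ peak of 4 reads in replicate 2, chr4:86662219-86662267, lay in intron 4, 5 nt from a splice site.

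In Lin- cells, the *Plin2* peaks sat at the start of the gene. The peak chr4:86669948-86670007 covered the 5′ UTR in exon 1, with 6 reads in biological replicate 2 and 6 in technical replicate 5. Biological replicate 3 had 2 others of 4 and 3 reads, at the border of intron 2 and exon 3 (chr4:86668559-86668612) and at the end of coding exon 3 (chr4:86668347-86668393). None of these 3 places had a peak in a CD11b+ library. The border peak is shown with exon bases in capitals.
Plin2 intron 2 end, chr4:86668559-86668612, minus strand: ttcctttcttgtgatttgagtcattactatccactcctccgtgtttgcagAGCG

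In *Abcg1*, the intron 2 site was called in all 4 CD11b+ libraries with 16, 12, 10 and 5 reads in replicates 1 to 4, and in Lin- biological replicate 2 with 8 reads. Its bases were 93.5% A or G, it held no CA 6-mer on either strand, and it lay 1506 nt from the nearest splice site. A second intron 2 peak in CD11b+ biological replicate 2, chr17:31086008-31086076 with 9 reads, did cover a CA repeat, with the motif in capitals below. CD11b+ technical replicate 3 had a peak of 8 reads in intron 5, chr17:31101390-31101465. The other Lin- peaks were 1 in the 5′ UTR of exon 1 with 8 reads (chr17:31057764-31057830) and 1 of only 3 nt and 3 reads at the start of intron 14 (chr17:31113047-31113049).
Abcg1 intron 2 CA repeat, chr17:31086008-31086076, plus strand: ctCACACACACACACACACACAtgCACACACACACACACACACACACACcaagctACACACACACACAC

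*Abca1* and *Pparg* had a single peak each. The *Abca1* peak had 3 reads in Lin- biological replicate 3 and covered the end of intron 20 and the first 5 bases of the next exon. The smInput of Lin- replicate 1 had a peak of 6 reads elsewhere in the gene, chr4:53130082-53130093, and no CD11b+ library had one. The *Pparg* peak had 6 reads in CD11b+ technical replicate 4 only and consisted of a TG repeat in an intron upstream of the principal transcript, 8263 nt from the nearest splice site. Neither peak was found in a second library. Capitals mark exon bases in the first sequence and the TG repeat in the second.
Abca1 intron 20 end, chr4:53075585-53075631, minus strand: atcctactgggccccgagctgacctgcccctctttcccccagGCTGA
Pparg upstream intron, chr6:115375370-115375415, plus strand: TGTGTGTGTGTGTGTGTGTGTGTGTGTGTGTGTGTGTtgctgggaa

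**Figure D3:**
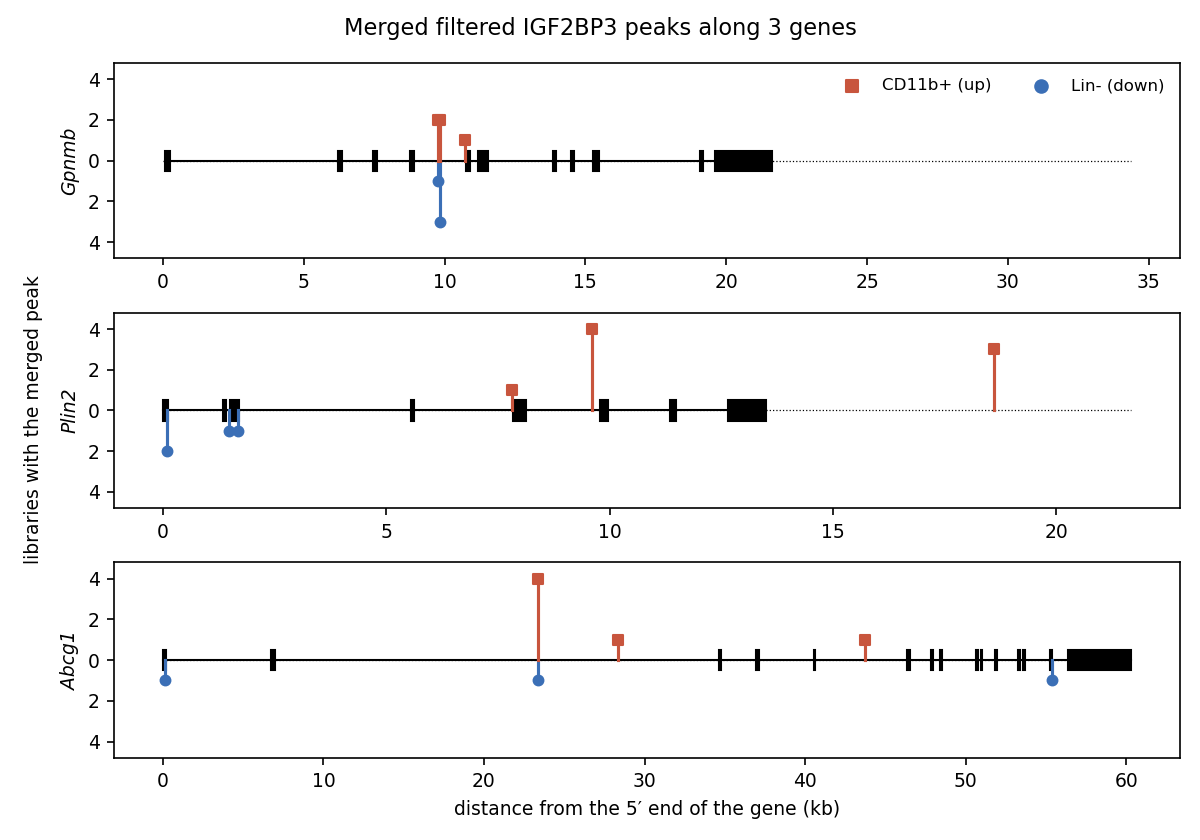
Merged filtered peaks along *Gpnmb*, *Plin2* and *Abcg1*. The x axis is the distance from the 5′ end of the gene in kb, black boxes are exons of the principal transcript, the dotted line is the rest of the annotated gene, and the height of each stem is the number of libraries with the peak (CD11b+ up in red, Lin- down in blue). The *Plin2* sites of the cell types lie apart, and those of *Gpnmb* intron 4 coincide.

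**Figure D4:**
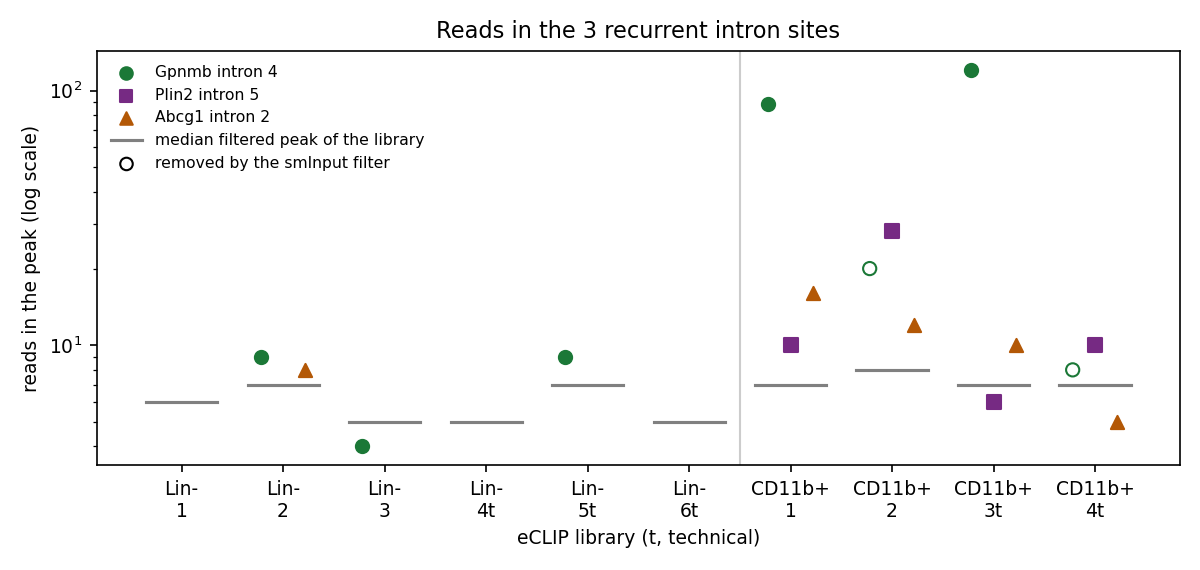
Reads in the 3 intron sites in each eCLIP library, on a log axis. Gray bars are the median filtered peak of the library, open symbols are peaks removed by the smInput filter, and a t marks technical replicates. *Gpnmb* reaches 89 and 121 reads in CD11b+ replicates 1 and 3, and the sites of *Plin2* and *Abcg1* lie between 5 and 28 reads in CD11b+ cells.

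Cell types were compared over biological libraries, 2 of CD11b+ and 3 of Lin- cells, by filtered peaks per 10000 filtered peaks of the library. For *Plin2*, CD11b+ replicates 1 and 2 had 2.35 and 2.98, and Lin- replicates 1 to 3 had 0, 0.996 and 2.30. The groups did not overlap, with means of 2.67 ± 0.45 (SD, n = 2) and 1.10 ± 1.15 (SD, n = 3), but the exact permutation test over libraries gave p = 0.2 (two-sided, adjusted p = 0.78 over 9290 genes). Such a pattern, higher in both CD11b+ libraries than in every Lin- library, was found for 10.6% of the 9290 genes with a filtered peak, and its opposite for 9.34%. Of the 4 members tested, *Plin2* was the 1 with that pattern and none had the opposite. *Abcg1* had 1.17 and 1.99 in CD11b+ against 0, 1.99 and 1.15 in Lin- libraries, where the groups overlapped (exact permutation p = 0.5). *Gpnmb* had 3.52 and 0 against 0, 0.996 and 2.30 (exact permutation p = 0.7), and *Abca1* 0 in both CD11b+ libraries against 0, 0 and 1.15 (exact permutation p = 1). The 10 possible splits allow no p below 0.1, so 0 genes had an unadjusted p below 0.05 and 0 an adjusted p below 0.1.

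Unfiltered eCLIP peaks were also set against the smInput peaks of the same replicates. In CD11b+ cells, *Plin2* had 2 and 3 peaks, *Gpnmb* 3 and 1, and *Abcg1* 1 and 2, and the smInput libraries of these replicates had 0. All 3 members tested were higher without overlap, as were 37.8% of 7319 genes. With technical libraries included 2 members were, since smInput replicate 4 had 1 *Gpnmb* peak. The *Gpnmb* peak of eCLIP replicate 2 did not pass the smInput filter. Exact permutation of 2 against 2 libraries can never pass the threshold, since at least 2 of its 6 splits are as extreme. In Lin- cells, *Abcg1*, *Gpnmb* and *Plin2* each had a mean of 1 peak with an SD of 1 (n = 3) against 0 in smInput, but replicate 1 had none on any of them, so the groups overlapped (exact permutation p = 0.4 for each, two-sided, adjusted p = 0.762). *Abca1* had 1 peak in 3 libraries of either kind (exact permutation p = 1). None of the 4 members was higher without overlap, against 24.1% of 8347 genes. Since eCLIP and smInput peaks were called with different settings, these counts also carry that difference.

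The features of the members' peaks were compared with those of all genes, as a description. In CD11b+ cells 10 of 10 merged peaks lay in introns, against 75.4% of merged peaks of all genes, and in Lin- cells 6 of 9, against 64.2%. Within 50 nt of a splice site, a distance chosen after the values were seen, lay 6 of 9 in Lin- and 2 of 10 in CD11b+ cells, and the shares for all genes were 62.1% and 20.8%. When a peak with any base in an exon was not called intronic, the Lin- share fell from 66.7% to 33.3%. The CD11b+ share then fell from 100% to 90%. The members' peaks thus differed between the cell types in the same direction as the peaks of all genes.

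ACACAC or CACACA on the gene's strand was found in 3 of 10 merged peaks in CD11b+ cells, against 17.1% for all genes, and in 2 of 9 in Lin- cells, against 8.37%. On the opposite strand it was found in 3 of 10 in CD11b+ cells, against 24.1%, and in 1 of 9 in Lin- cells, against 8.13%. In CD11b+ cells the sense matches lay in peaks of *Gpnmb* and *Abcg1*, and the opposite-strand ones in peaks of *Plin2* and *Pparg*. In Lin- cells both sense matches lay in *Gpnmb* intron 4. The opposite-strand match there lay in the exon 1 peak of *Plin2*, of which 0% was soft-masked. Most bases were soft-masked as repeats in 7 of 10 CD11b+ and 3 of 9 Lin- merged peaks, against 57.0% and 23.4% for all genes. Of the members' merged peaks, 3 of 9 in Lin- and 3 of 10 in CD11b+ cells overlapped one of the other cell type, against 25.1% and 29.7% for all genes.

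Among 49 other genes of lipid handling, 48 had a row in the Lin- and 47 in the CD11b+ table, and 34 of 48 and 30 of 47 had a filtered peak, against the 26.5% and 25.6% of all genes and the 39.8% and 37.1% of genes averaging 10 or more given above. This list was high in level, and the share with a peak was higher in the top 10% of levels than among all genes. Its median percentile was 86.4 in Lin- and 87.0 in CD11b+ cells. The LXRβ gene *Nr1h2* stood at 2502 normalized counts in Lin- and 2306 in CD11b+ cells, percentiles 89.3 and 92.7, above *Nr1h3* in both tables, and had 3 and 1 merged peaks. Of 8 nuclear receptors and partners, 6 had a peak in each cell type, and of 8 LXR targets 7 in Lin- and 4 in CD11b+ cells. Of the genes for lipid uptake, 3 of 7 had a peak in Lin- and 4 of 6 in CD11b+ cells, for storage and hydrolysis 7 and 8 of 11, and for carriers and export 5 and 4 of 7. Among the TREM2 partners and genes of lipid-associated macrophages, 6 and 4 of 7 had one, with *Syk*, the kinase that acts below TREM2 and its adaptor, at 11 and 12 merged peaks, and *Tyrobp*, the adaptor itself, at 2 and 2. *Trem2* had none.

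The gene of this list whose pair of percentiles was nearest to a member's was *Ncor1* for *Gpnmb* (1.43 percentile points apart over the 2 tables), *Stard3* for *Abcg1* (1.80), *Ncoa1* for both *Lpl* (2.35) and *Apoe* (2.86), and *Soat1* for *Plin2* (3.96). *Pparg* was nearest to *Fabp4* (7.09), *Trem2* to *Mylip* (8.18), *Nr1h3* to *Apoc1* (9.32) and *Abca1* to *Pltp* (9.91). Likeness over 2 tables is a description of levels only.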

How the data were processed

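Groups, cell types and replicate numbers were taken from the sample labels, and genotypes of the eCLIP cells and culture from the study's methods and legends. RNA-seq reads (stranded, single-end) were aligned by the authors with STAR 2.5.3a (version per the submitters' processing notes) to mm10, repeats were masked, and DESeq2 was run. The deposited tables hold, per gene, a mean normalized count (a signal pooled over both genotypes), which was used here, and the authors' own fold changes and p-values of I3KO against WT, which were not. For eCLIP, the authors ran CLIPper on each library and dropped eCLIP peaks that overlapped smInput peaks. The deposited peak value, at most 0.05, was read as the CLIPper p-value, and is used only in alternatives. Per the file headers, smInput and eCLIP libraries differed in deduplication and peak calling settings.

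Peaks were joined to genes by Ensembl ID without version, and merged per cell type where they overlapped by at least 1 nt on the same strand. A merged peak was placed by its midpoint against all transcripts of the gene in GENCODE release M21, where coding exon came before UTR. Motifs were searched on both strands. Exact permutation tests over biological libraries were two-sided (share of splits with an absolute difference in means at least as large), with Benjamini-Hochberg adjustment over all genes with a peak and a threshold of 0.1, and were tested on simulated data. Nothing in the sources used here says whether biological replicates are separate animals or cultures, so p-values measure the spread between these libraries. Each smInput came from the same sample as its eCLIP library, so replicate numbers pair them. Correlations of deviations from group means were -0.01, 0.01 and -0.08 for the 3 Lin- pairs. For the 2 CD11b+ pairs the correlation was -0.12. It is the same for both by construction, since the deviations of 2 libraries from their mean are equal and opposite. The members and gene lists were chosen with earlier results of these data known. All 9 members are named. Their merged peaks in at least 2 libraries, or the widest where there was none, are named with coordinates, and further peaks were named after their values were seen. Python 3.11.15, NumPy 2.4.6, SciPy 1.17.1, pysam 0.24.0 and matplotlib 3.10.9 were used. Alternatives covered the smInput filter, technical libraries, a peak value below 0.001, annotation, floors on the mean, motif length and leaving out each biological library.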

Additional observations from a re-analysis of the deposited data

Results flagged for a closer look

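Of 20 groups of smInput libraries tested for a library far from the others (Dixon's ratio at 95%), 2 were beyond the critical value. Both are counts of 0 or 1. A group with 1 peak in 1 library and 0 in the others always gives the largest ratio. The 2 of 20 therefore cannot be set against a rate given by chance. For *Abca1*, 1 of 6 Lin- smInput libraries (replicate 1) had 1 peak and the others 0. For *Gpnmb*, 1 of 4 CD11b+ smInput libraries (replicate 4) had 1 peak and the others 0, and this peak overlaps the intron 4 CA repeat.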

How the results depend on the processing

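With a deposited peak value below 0.001, the members with a peak in Lin- cells fell from 4 to 2 and their merged peaks from 9 to 3. Requiring 2 biological libraries left 2 members in CD11b+ cells in place of 4, *Abcg1* and *Plin2*. *Gpnmb* was then lost, since it had no filtered peak in CD11b+ biological replicate 2. The intron share was 33.3% in Lin- and 90% in CD11b+ cells when any exonic base counted as exon. *Plin2*, the 1 member higher in CD11b+ than in Lin- libraries without overlap, no longer was with peaks as counted or with technical libraries included (0 members each). Members higher in CD11b+ eCLIP than in smInput fell from 3 to 2 with technical libraries included. Biological libraries were left out in turn, with the technical ones left out too. Members with a peak then ranged from 3 to 4 in Lin- and from 2 to 3 in CD11b+ cells (2 without CD11b+ replicate 1), and merged peaks from 4 to 9 in Lin- (4 without replicate 3) and from 5 to 6 in CD11b+ cells (5 without replicate 1 and 6 without replicate 2). Members higher in CD11b+ cells ranged from 1 to 2 (2 without Lin- replicate 2 or CD11b+ replicate 2), and members higher in eCLIP than in smInput from 0 to 3 in Lin- cells (3 without replicate 1). The difference for *Gpnmb* between cell types ranged from -1.10 peaks per 10000 without CD11b+ replicate 1, reversing its direction, to 2.42 without CD11b+ replicate 2. With the replicate block, the counts of members higher without overlap were 1 between cell types, 0 for Lin- and 3 for CD11b+ eCLIP against smInput, as without it, and no p can then go below 0.5, 0.25 and 0.5. Lin- and CD11b+ replicates share only a number (correlation of deviations -0.18 and -0.10). A crossed pairing of CD11b+ replicates, added after seeing the data, gave 3 as well. It could give nothing else, since these members had 0 smInput peaks in both replicates. The motif on either strand, also added later, was in 60% of CD11b+ and 33.3% of Lin- merged peaks. Of the values for single genes, 87 kept their direction and size or side of the threshold, and 24 percentiles moved by 5 points or more, most of them downward when genes averaging under 10 were left out or length was taken into account. The fall on leaving out genes averaging under 10 follows from the ranking, since every member averages 10 or more. The cause of the other changes was not tested. Depth per library is unknown, which limits every statement on genes without a peak.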
